A study of Mus musculus with 6 samples.

Results

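Kit, the receptor for stem cell factor, was described here together with 8 genes of the JAK-STAT pathway that cytokine receptors use: Jak2, Stat3, Stat5a, Stat5b, Sh2b3, Cish, Socs2 and Socs3. The 9 genes were taken by symbol from a table of 24410 gene symbols, and all 9 had a row in it. Messenger RNA was measured in 6 libraries of cells from C57BL/6 mice aged 5 months, 3 from wild-type animals (WT 1 to WT 3) and 3 from Txnip -/- animals (KO 1 to KO 3), which lack the thioredoxin-interacting protein. In both groups marrow cells freed of mature lineages were cultured over 3 days in an expansion medium for blood progenitors, to which 10% serum, murine stem cell factor at 100 ng/mL and murine thrombopoietin at 20 ng/mL were added, and the CD41+ cells were then sorted. Both cytokines were present in every culture, so the values describe stimulated cells and hold no arm without a cytokine.

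Stem cell factor makes pairs of Kit molecules phosphorylate each other. Thrombopoietin acts through a receptor with no kinase of its own, which relies on the attached kinase Jak2; Jak2 then phosphorylates STAT proteins, and these enter the nucleus as transcription factors. Stat5 proteins carry much of this signal in the megakaryocyte lineage and switch on their own brakes, the SOCS family with Cish, while the adaptor Sh2b3 (Lnk) holds back both Kit and Jak2. Most of this control is by phosphorylation, which RNA does not measure.

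The unit is FPKM, a count of fragments scaled to transcript length in kilobases and to the total mapped, so levels of different genes can be set side by side per length. Where 3 values are given for a genotype, they stand in the order of the library numbers 1, 2 and 3. Txnip was between 112 and 228 FPKM in the WT libraries and at most 0.04 in the KO libraries, as the labels say. The spacing of low values gave a clear estimate of depth for 4 libraries, the shallowest being KO 1 with 14500000 fragments and the deepest KO 3 with 25700000. At such depths 1 FPKM stands for about 14.5 to 25.7 fragments per kilobase of transcript. Itga2b, which encodes CD41, lay between 83.2 and 152 FPKM, while the late megakaryocyte tubulin Tubb1 lay between 0.17 and 1.47. The marker lists for neutrophils, monocytes and mast cells were all present too, with 8 of 8, 8 of 10 and 9 of 10 genes at 1 FPKM or more in every library. Whether separate cells of these types or the CD41+ progenitors themselves carried these transcripts cannot be told from pooled cells. Fewer cells of a type and less RNA per cell cannot be told apart either.

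The 9 genes fell into 3 ranges of abundance that did not overlap, and their order was the same in both genotypes. Kit had the highest mean, followed by Stat3, Stat5b, Jak2 and Stat5a, and these 5 lay between 27.8 and 85.3 FPKM in all libraries. Their ranges overlapped, so their order among themselves is within the spread of the libraries. Sh2b3 and Socs3 came next, between 5.14 and 15.9 FPKM, again overlapping each other. Socs2 and Cish were lowest, between 1.22 and 3.90 FPKM, and every value of these 2 genes was below every value of the other 7. Among the 11249 tested genes (1 FPKM or more in 3 or more libraries), Kit stood between percentile 75.4 and 91.2 of the levels in its library and Cish between 5.70 and 17.2. All 9 genes passed this filter.

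**Figure D1:**
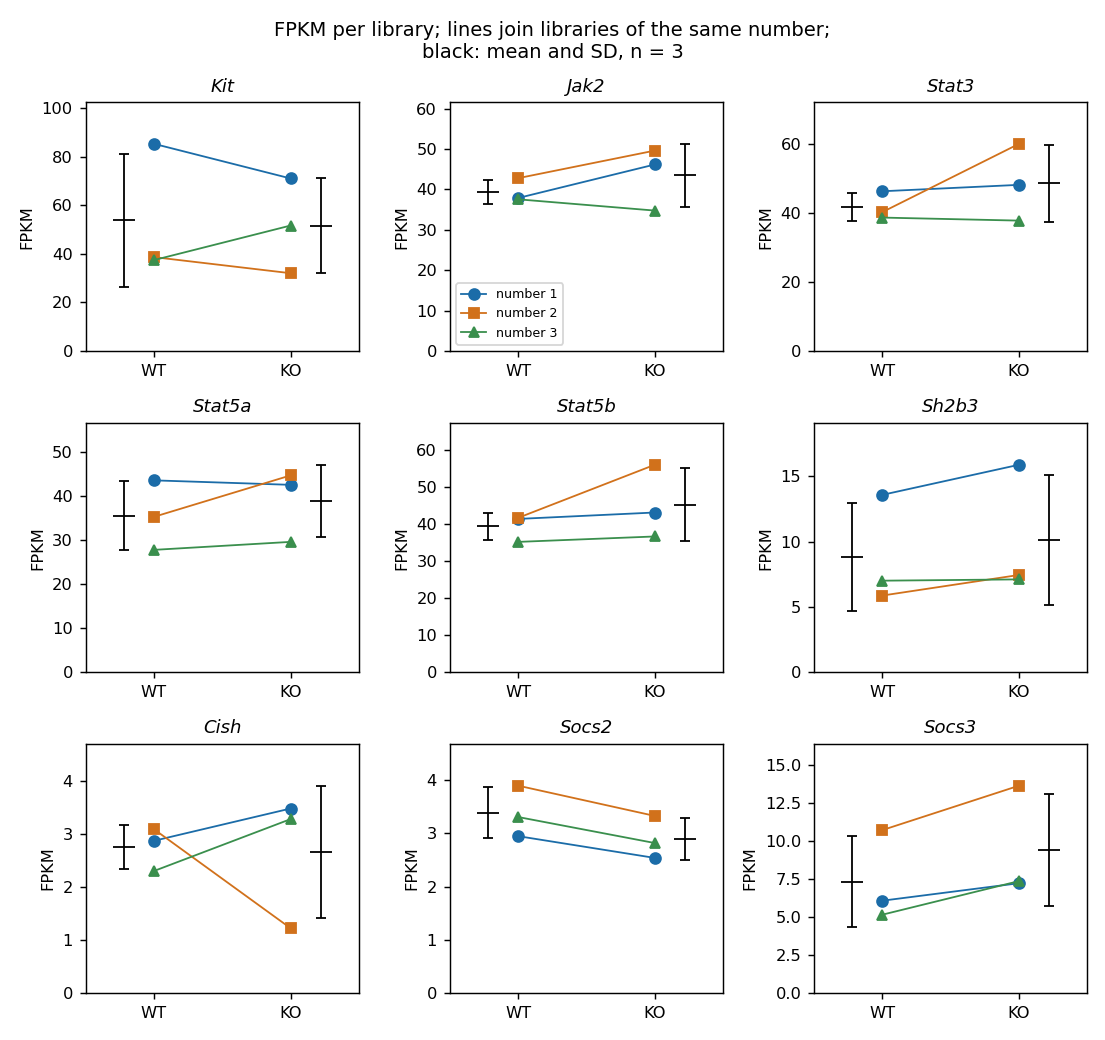
FPKM of each of the 9 genes in WT and KO libraries, with lines joining libraries that carry the same number and black marks for the mean and SD (n = 3). WT and KO overlap for every gene; Kit and Sh2b3 are highest in both libraries numbered 1, and Socs3 in both numbered 2.

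None of the 9 genes differed between the genotypes beyond the spread of the libraries. In limma on log2(FPKM + 1) 0 of 9 had an adjusted p under 0.05 (0.0178% of all tested genes did), and 0 of 9 had an unadjusted p under 0.05, against 0.676% of all genes. With the replicate number as a block, 0 of 9 passed adjusted (0.0267% of all genes) and 0 unadjusted (6.93% of all genes). For all 9 genes the WT and KO libraries overlapped, while 4.35% of tested genes had groups apart. The KO mean was higher for 6 genes and lower for 3 on the log2 scale, with a median difference of 0.13 beside 0.06 for all tested genes; 6 of the 9 lay above the median of all genes. Rescaling the libraries to a common FPKM sum raised both medians, to 0.31 and 0.22, and made the split 8 to 1, with again 6 of 9 above the median of all genes. The labels leave unstated whether each library is a separate animal, so p-values here reflect no more than the scatter of these samples, which may be technical in part. In limma that scatter is not a gene's own alone, because each gene's spread is drawn toward a trend over all tested genes.

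The receptor gene Kit varied widely between libraries, and no difference between the genotypes was detected. It was at 85.3, 38.7 and 37.45 FPKM in the wild-type and at 71.1, 32.05 and 51.7 in the knockout libraries. Libraries WT 1 and KO 1 were the highest of their genotypes, and the KO values lay within the range of the WT values except for KO 2, which was the lowest of the 6. On the log2(FPKM + 1) scale KO minus WT came to −0.02 (SE 0.38; limma, adjusted p = 1.00), with a 95% interval from −0.90 to 0.85. With the replicate number as a block the interval narrowed to −0.41 to 0.36 (limma, adjusted p = 0.984). The sign of so small a difference turned when libraries were rescaled to a common FPKM sum, to 0.15, and without WT 1 (0.36) or KO 2 (0.28). Kit was lower in KO in pairs 1 and 2 (a pair being the WT and KO library of 1 number) and higher in pair 3.

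The kinase gene Jak2 had a log2 SD over the 6 libraries of 0.19, lower than all of the other genes but Socs2 (0.16). It was at 37.9, 42.8 and 37.55 FPKM in the wild-type and at 46.2, 49.6 and 34.8 in the knockout libraries. The groups overlapped because KO 3 was the lowest library and WT 2 was above it, although KO 1 and KO 2 were the highest. Its difference was 0.13 (SE 0.21; limma, adjusted p = 1.00), with a 95% interval from −0.35 to 0.60 and, with the block, from −0.20 to 0.46.

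The 3 STAT genes encode the transcription factors that Jak2 phosphorylates. Stat5a and Stat5b are close paralogs and lie next to each other on chromosome 11 with Stat3 as the next gene, in the RefSeq annotation of GRCm38. RSEM, which the submitters' processing notes name, divides reads between similar transcripts by estimation, so the split between Stat5a and Stat5b is partly an estimate. Stat5a was at 43.6, 35.3 and 27.8 FPKM in the wild-type and at 42.6, 44.7 and 29.6 in the knockout libraries. Both libraries numbered 3 were the lowest, and the groups overlapped. Stat5b was at 41.5, 41.75 and 35.2 FPKM in the wild-type and at 43.2, 56.1 and 36.7 in the knockout libraries. KO 2 stood above the other libraries, and both libraries numbered 3 were again the lowest.

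Stat3 was at 46.3, 40.3 and 38.7 FPKM in the wild-type and at 48.2, 60.1 and 37.8 in the knockout libraries. KO 2 was the highest and KO 3 the lowest of the 6. The differences were 0.20 for Stat3 (95% interval −0.31 to 0.71), 0.13 for Stat5a (−0.44 to 0.70) and 0.18 for Stat5b (−0.32 to 0.68), each with a limma adjusted p of 1.00; without WT 3 that of Stat5a was −0.03. Of the 3, only Stat5b was higher in KO in all 3 pairs, and in pairs 1 and 3 by no more than 0.06. The ratio of Stat5b to Stat5a averaged 1.13 ± 0.16 over the WT and 1.17 ± 0.13 over the KO libraries (SD, n = 3 each), and the ratio of Stat3 to Stat5b was 1.06 ± 0.08 and 1.07 ± 0.04, so that the proportions of the 3 transcripts differed between genotypes by less than their spread.

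Sh2b3, the inhibitory adaptor, was at 13.6, 5.86 and 7 FPKM in the wild-type and at 15.9, 7.44 and 7.10 in the knockout libraries. Both libraries numbered 1 stood above the other 4, in which the level did not pass 7.44. The difference between genotypes was 0.18 (SE 0.38; limma, adjusted p = 1.00), with a 95% interval from −0.70 to 1.05 and, with the block, from −0.16 to 0.51. Sh2b3 was higher in KO in 3 of 3 pairs, by 0.21, 0.30 and 0.02. Without WT 2 or without KO 1 the difference changed sign, to −0.04 and −0.17.

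The feedback inhibitors are the part of the pathway whose transcripts STAT proteins raise. The usual STAT element is TTCNNNGAA, a palindrome that reads the same on both strands. It was looked for in RefSeq promoter windows of GRCm38.p6, which run from 250 bases before to 50 bases after a gene's start site and were matched for 8 of the 9 genes (all but Socs2). Windows of Cish and Socs3 held it, 2 of the 11 windows of these genes; of all 32851 windows 8.30% held it and 0.457% held 2 or more copies. Cish had 2 copies, at positions 1 to 9 and 12 to 20 counted from the start site. The 30 bases around them (chr9:107296654-107296683, plus strand) and the 30 around the single Socs3 copy, at positions −154 to −146 (chr11:117969502-117969531, minus strand), are shown because they set the 2 windows side by side, 5′ to 3′ on the gene's strand, with the element in capitals.
Cish: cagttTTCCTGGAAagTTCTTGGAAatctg
Socs3: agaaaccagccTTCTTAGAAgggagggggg
Positions are counted from the start site in the RefSeq table. The bases just after that of Socs3 were not found in a GENCODE M21 transcript of the gene, while those of Cish were. They were also not found for the Jak2 window and for a Stat5b window, neither of which held the element. A match describes letters only; binding was not measured. The coordinates belong to GRCm38.p6, while the expression values were made on mm9.

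Cish, which blocks the receptor sites where Stat5 docks, was at 2.87, 3.09 and 2.30 FPKM in the wild-type and at 3.48, 1.22 and 3.28 in the knockout libraries. KO 2 was the lowest library and KO 1 and KO 3 were the highest. The difference was −0.10 (SE 0.33; limma, adjusted p = 1.00), with a 95% interval from −0.84 to 0.64. It rested on KO 2: without that library the difference was 0.23 (limma, adjusted p = 0.977). It was also above 0, at 0.04, with libraries rescaled to a common sum.

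Socs2, a ubiquitin ligase subunit best known for restraining growth hormone signalling, was at 2.95, 3.90 and 3.31 FPKM in the wild-type and at 2.54, 3.33 and 2.82 in the knockout libraries. The 2 groups overlapped, yet each KO library lay below the WT library of its number, by 0.16, 0.18 and 0.17 on the log2(FPKM + 1) scale. These 3 differences lie much closer together than the blocked interval below is wide, as limma draws that width partly from other genes. Of all tested genes 8.68% were lower in KO in 3 of 3 pairs, and Socs2 was the 1 of the 9 that was. Its difference was −0.17 (SE 0.24; limma, adjusted p = 1.00), with a 95% interval from −0.72 to 0.38 and, with the block, from −0.57 to 0.23 (adjusted p = 0.871).

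Socs3, which binds JAK kinases and receptors such as gp130 and is raised mainly by Stat3, had the largest difference of the 9. It was at 6.06, 10.7 and 5.14 FPKM in the wild-type and at 7.21, 13.6 and 7.35 in the knockout libraries. Both libraries numbered 2 were the highest of their genotype, so WT 2 lay above KO 1 and KO 3 and the groups overlapped. Each KO library lay above its WT partner, by 0.22, 0.32 and 0.44. The difference was 0.33 (SE 0.34; limma, adjusted p = 1.00), with a 95% interval from −0.44 to 1.10. With the block the interval was −0.01 to 0.67 (unadjusted p = 0.0562, limma, adjusted p = 0.735). Socs3, Sh2b3 and Stat5b were the 3 of 9 genes higher in KO in all 3 pairs, a pattern that 20.4% of all tested genes showed.

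**Figure D2:**
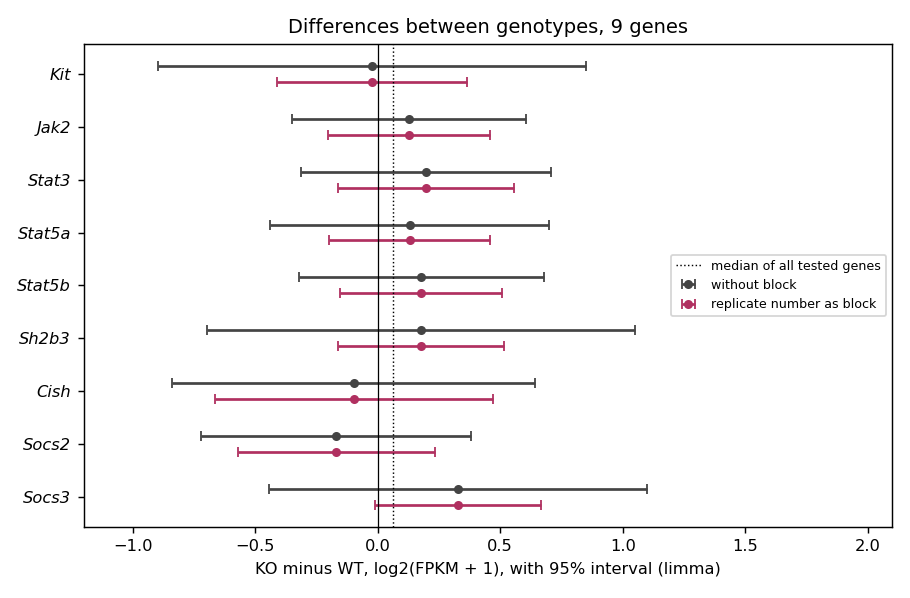
KO minus WT difference of each gene on the log2(FPKM + 1) scale with its 95% interval from limma, without (grey) and with (red) the replicate number as a block; the dotted line is the median of all tested genes, 0.06. All 18 intervals include 0, the narrowest margin being that of Socs3 with the block (−0.01 to 0.67).

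Kit, Sh2b3 and Socs3 differed between the library numbers. Kit averaged 78.2 FPKM in the libraries numbered 1 and 35.4 and 44.6 in those numbered 2 and 3. Sh2b3 averaged 14.7, 6.65 and 7.05 FPKM, and Socs3 6.64, 12.2 and 6.25. An F test of the number in limma, added after these values were seen, passed for Kit (adjusted p = 0.00766), Sh2b3 (0.00425) and Socs3 (0.00975) and not for the other 6, of which Stat5a came nearest (0.0588). Those 3 of 9 stand beside 35.1% of all tested genes that passed, so a dependence on the number was about as common here as elsewhere in the table. What a number stands for is not stated in the labels. The Y-linked gene Ddx3y was between 22.8 and 41.7 FPKM in the libraries numbered 1 and 2 and listed at 0 in both numbered 3. Number 3 therefore cannot be told apart from a difference in donor sex.

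Marker genes moved with Kit and Sh2b3 across the numbers. Gata2, a transcription factor of progenitors, mast cells and early megakaryocytes, averaged 95.6 FPKM in the libraries numbered 1 and 29.98 and 31.1 in the others. The platelet chemokine genes Pf4 and Ppbp went the other way: Pf4 averaged 471 FPKM in the libraries numbered 1 against 1489.8 and 950.3 in the others, and Ppbp 29.1 against 126 and 67.8. The fibrinogen receptor subunit Itgb3, also of megakaryocytes, was higher in the libraries numbered 1, at 43.5 FPKM against 25.6 and 30.9. The summed level of the 9 megakaryocyte markers, most of which is Pf4, was 642 in WT 1 and 669 in KO 1 and between 1015 and 1862 in the other 4 libraries. Over the 6 libraries it had a Pearson r of −0.97 with Kit and −0.88 with Sh2b3, given as a description of libraries that share 3 numbers. The part of the markers in the spread of Kit and Sh2b3 was not tested.

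The mast cell and basophil markers were also mostly higher in the libraries numbered 1. On the log2(FPKM + 1) scale 10 of 10 were above the mean of the other numbers there (9 of 10 with quantile normalization), by 0.10 (Fcer1a) to 1.61 (Gata2), and 4 passed the F test of the number: Gata2, Tpsb2, Cpa3 and Ms4a2. Those 4 of 10 stand beside 35.1% of all tested genes that passed. The F test also passed for 5 of 8 megakaryocyte, 7 of 10 monocyte and macrophage and 5 of 8 neutrophil markers. It passed for 2 of 7 stem and 3 of 7 erythroid markers. Of the 8 tested megakaryocyte markers 1, Itgb3, was higher in number 1 (2 of 8 with a common FPKM sum). The mast cell and basophil sum, made up mostly of Mcpt8, Cpa3 and Prss34, was between 1054 and 1546 FPKM in WT and between 629.96 and 1412 in KO, with r of 0.43 with Kit. Hdc, the enzyme that makes histamine, followed the order of Kit, with means of 85.1, 52.7 and 76.8 FPKM in numbers 1, 2 and 3, while Cpa3, a protease of mast cell granules, did not (293, 282 and 133). Both were chosen after their values were seen. Fcer1a, the IgE receptor chain, had its groups apart, with a KO minus WT difference of −1.05 (SE 0.28; limma, adjusted p = 1.00). Fcer1a was the 1 of the 10 mast cell and basophil markers with groups apart, beside 4.35% of all tested genes. Of these 10 markers, 3 were higher and 7 lower in KO on the log2 scale. The stem and progenitor markers summed to between 258 and 348 FPKM in WT and between 205 and 337 in KO, with r of −0.78 with Kit, most of that sum being Cd34. The erythroid sums lay between 134 and 161 in WT and between 110.2 and 120.4 in KO, with the groups apart. The largest part of each erythroid sum was Tfrc, at 50.85 to 94.46 FPKM. The mast cell, stem and erythroid sums were each lower in KO in 3 of 3 pairs as deposited but in 2 of 3 with a common FPKM sum. There the erythroid groups overlapped. With quantile normalization the erythroid sum was lower in 3 of 3 pairs with its groups apart. The mast cell and stem sums were then lower in 2 of 3. Both rescalings of the marker lists were chosen after seeing the data. The monocyte and macrophage sums lay between 813 and 1913 in WT and between 1319.6 and 1835 in KO, and the neutrophil sums between 4588 and 5245 and between 2737 and 6671. The part of such cells, if present, in the values of the 9 genes was not tested. None of the marker lists has a gene listed at 0 throughout.

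**Figure D3:**
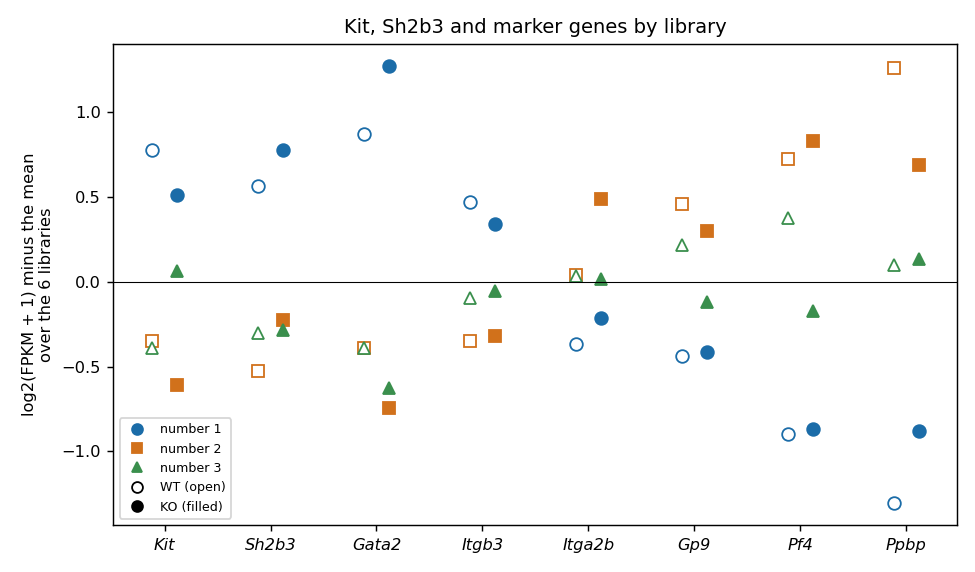
Log2(FPKM + 1) of Kit, Sh2b3 and 6 marker genes in each library, minus the mean over the 6 libraries; colour and shape give the number, open symbols WT and filled symbols KO. In the libraries numbered 1, Kit, Sh2b3, Gata2 and Itgb3 lie above their means, and Itga2b, Gp9, Pf4 and Ppbp below them.

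Among the 9 genes themselves, the kinase and the STAT genes varied together over the 6 libraries, as a description across libraries that share 3 numbers. Stat3 and Stat5b had a Pearson r of 0.95, Jak2 and Stat5b 0.87, and Stat3 and Stat5a 0.85. Kit varied with Sh2b3 (r of 0.86), and had r of −0.29 with Jak2. Socs2 ran against both Kit (−0.71) and Sh2b3 (−0.78), and Socs3 followed Stat5b (0.82). Of 8469 genes with a mean of at least 5 FPKM, the 5 most like Kit were Ldah, Slc39a9, Chst11, Rwdd4a and Col4a3bp (r from 0.987 to 0.998), and those most unlike it were Hyi and Eno3 (−0.997 and −0.993). For Cish the closest 5 were Klhl28, Trim59, Zmym2, Nek7 and Etohi1 (r from 0.979 to 0.986) and the most unlike Dtd2 and Larp1b (−0.994 and −0.991). With 6 libraries and 8469 genes, such high values arise easily and carry no test.

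The rest of the pathway held no gene that passed either. Of the 77 genes in 5 further lists, 0 passed limma over all genes without or with the block; 0 had an unadjusted p under 0.05 without the block and 6 with it (7.79%, beside 6.93% of all tested genes), namely Csf1r, Il5ra, Il6st, Pias4, Pim1 and Stat2. Of all 11249 tested genes 7131 had a higher and 4118 a lower mean in KO, so each split given next is followed by the count above the median of all genes. The splits follow the deposited scale: with quantile normalization the other inhibitors went to 16 higher and 4 lower, the adaptors and enzymes went to 18 higher and 6 lower and the other receptors to 8 and 7, and with a common FPKM sum the other receptors went to 14 and 1. Of 7 other JAK and STAT genes, 6 had a higher and 1 a lower mean in KO, with a median difference of 0.22 and 6 above the median of all genes. Tyk2, a JAK kinase, averaged 18.1 ± 1.72 FPKM over the WT and 22.003 ± 3.57 over the KO libraries (SD, n = 3 each), and Stat2, the interferon-specific STAT, 4.06 ± 1.82 and 6.76 ± 4.75. In this list Stat6, chosen after its values were seen, was the 1 gene of 7 whose groups stood apart, beside 4.35% of all tested genes. It was at 33.4 to 36.0 FPKM in WT and 36.2 to 43.3 in KO. Of 20 genes listed as other inhibitors of cytokine signalling, 18 were higher and 2 lower (median 0.14), and 15 lay above the median of all genes. The list is not made up of inhibitors alone. It holds Sh2b1, which enhances Jak2 activity, and its paralog Sh2b2, of mixed function, both higher by 0.16. Pias4, a SUMO ligase that restrains STATs, was 8.27 ± 2.11 and 11.3 ± 1.37 FPKM, and Socs4 11.99 ± 2.14 and 15.4 ± 3.28 (SD, n = 3 each); neither passed (limma, adjusted p = 1.00 each).

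Of 24 adaptors and enzymes that act next to Kit and cytokine receptors, 23 were higher and 1 lower, with a median of 0.10; 16 lay above the median of all genes. The Src-family kinase gene Lyn averaged 45.5 ± 5.30 FPKM over the WT and 52.7 ± 10.4 over the KO libraries, and the phospholipase gene Plcg1 14.99 ± 0.98 and 17.6 ± 4.03 (SD, n = 3 each), with no call. Of 15 other cytokine and growth factor receptors, 11 were higher and 4 lower (median 0.07), and 8 lay above the median of all genes. Il5ra, the interleukin 5 receptor of eosinophils, was at 2.27, 1.19 and 1.08 FPKM in the wild-type and at 1.15, 0.66 and 0.32 in the knockout libraries, lower in 3 of 3 pairs, with overlapping groups. Csf1r, the macrophage growth factor receptor, was 30.8 ± 13.1 and 45.3 ± 24.3 FPKM (SD, n = 3 each). The marker list of monocytes and macrophages, which includes Csf1r itself, had a median of 0.55, with 9 of its 10 genes higher. Its medians in pairs 1, 2 and 3 were 1.01, 0.43 and −0.03. The part of such cells, if present, in Csf1r was not tested.

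The genes listed as commonly induced through Stat5 split 9 higher to 3 lower (median 0.10), with 8 above the median of all genes. The list holds Bcl6, which Stat5 is better known to repress. Its difference was 0.19, so it counts among the 9 and among the 8. Pim1, a survival kinase and a widely used readout of Stat5, was at 75.0, 78.1 and 70.2 FPKM in the wild-type and at 93.3, 115 and 85.3 in the knockout libraries. All 3 KO libraries were above all 3 WT libraries, but the difference of 0.38 (SE 0.20; limma, adjusted p = 1.00) did not pass, with a 95% interval from −0.07 to 0.83. Its paralog Pim3 also had groups apart, at 10.96 to 14.3 FPKM in WT and 14.8 to 16.8 in KO, with a difference of 0.23. Pim2 went the other way, at 4.51 ± 1.80 and 3.39 ± 2.08 FPKM (SD, n = 3 each), lower in 3 of 3 pairs; it was chosen after its values were seen. Pim1 and Pim3 were the 2 of 12 genes of this list with groups apart, beside 4.35% of all tested genes. The survival gene Bcl2l1, another textbook Stat5 target, differed by 0.02 (95% interval −0.80 to 0.84); it was likewise picked after its values were seen.

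**Figure D4:**
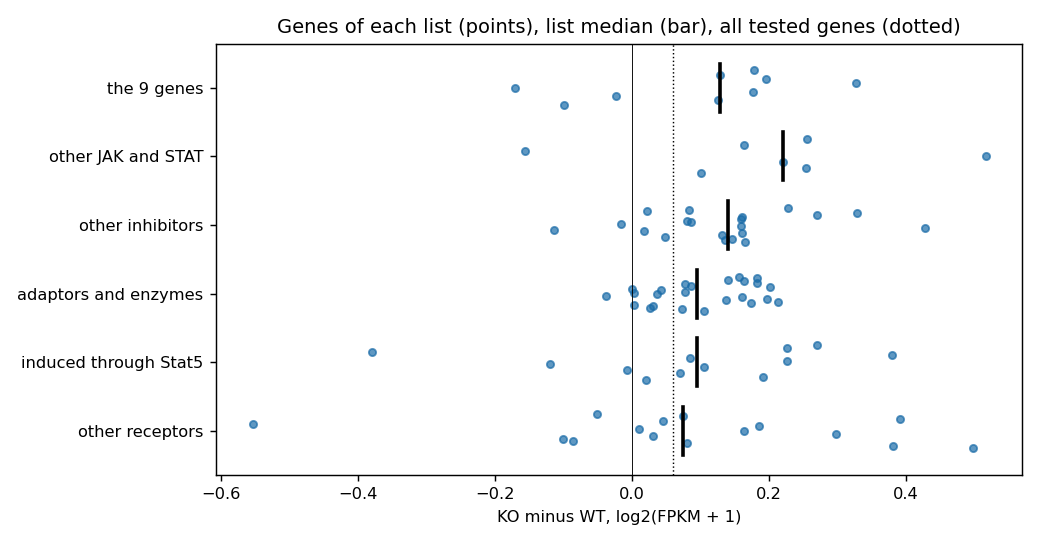
KO minus WT difference on the log2(FPKM + 1) scale of each tested gene (points) in the 9 genes and 5 further lists, with each list's median (bar) and the median of all tested genes, 0.06 (dotted). The list medians lie between 0.07 and 0.22, and no point passed the test.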

How the data were processed

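The authors deposited 1 table of FPKM values per gene symbol, with 1 column per library; all 6 columns were used. Per the submitters' processing notes reads were handled with RSEM 1.2.31, STAR 2.7.0a, Trimmomatic 0.39 and FastQC on build mm9; settings and annotation: not given in the sources used here. Reads are divided between similar transcripts by RSEM, which bears on Stat5a and Stat5b. WT 2 had the highest FPKM sum (1131640, against 715205 to 805730 in the others), and Rpph1 with Rmrp took 30.4% of it.

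Groups and numbers came from the sample titles. limma 3.58.1 in R 4.3.3 (lmFit, eBayes with a trend) was run, two-sided, on log2(FPKM + 1) of the 11249 genes that reached 1 FPKM in 3 or more libraries; p-values were adjusted over all of them (Benjamini-Hochberg) and called under 0.05; this scale understates changes of low genes. The test was checked on simulated data. Deviations from the group means correlated between same-numbered libraries across genes (r of 0.81, 0.59 and 0.38), so the numbers were taken to pair the samples. Depth was estimated with GENCODE M21 transcript lengths on GRCm38 and is approximate. The members, the gene lists and the rule for named genes (the 9 genes, 2 genes of smallest p per list, defining markers, and the genes most and least like Kit and Cish) were chosen with earlier results of these data known. The receptor gene of thrombopoietin is not reported here.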

Additional observations from a re-analysis of the deposited data

How the results depend on the processing

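In 22 alternatives 0 of the 9 genes passed, and the smallest adjusted p of any of them was 0.432 (limma; Socs3 with a common FPKM sum and the replicate block, an alternative chosen after seeing the data, as was the robust fit with the block). Rescaling to a common FPKM sum moved the median of all genes from 0.06 to 0.22 and that of the 9 genes from 0.13 to 0.31, with or without the block; quantile normalization gave 0.01 and 0.10. Kit and Cish then changed sign, to 0.15 and 0.040 with a common sum, without and with the block, and to 0.093 and 0.0031 with a common sum that leaves out Rpph1 and Rmrp. Relative to the median of all genes both stayed below it. With 1 library left out, differences ran from −0.29 to 0.36 for Kit, −0.28 to 0.23 for Cish, −0.17 to 0.50 for Sh2b3 and −0.032 to 0.31 for Stat5a, and the median of the 9 genes from 0.035 to 0.31. With the replicate block and 1 pair left out, Kit ran from −0.26 to 0.10, Cish from −0.34 to 0.29 and the median of the 9 from 0.09 to 0.24. Jak2, Stat3, Stat5b and Socs3 stayed above 0 and Socs2 below 0 in every alternative that tested them; Cish and Socs2 were not tested at the 5 FPKM minimum.

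Over all genes 2 passed, 3 with the replicate block, 1 without a filter on low values and 30 with a common sum and the block. Leaving out 1 library gave 0 to 2, and leaving out 1 pair with the block gave 23, 128 and 109 for pairs 1, 2 and 3. With so few libraries, the latter fits draw each gene's spread mostly from the trend over all tested genes. Without pair 1 the SE was 0.249 for both Kit and Stat3. The cause of these counts was not tested. With pseudocounts of 0.1 and 0.5 the same 2 genes passed, Txnip and Cd1d2. The blocked fit changed no call of the 9 genes. Cish and Socs2 had the lowest levels of the 9 genes; how far depth limits their values was not tested.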
